A study of Mus musculus with 20 samples.

Results

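The 39 genes described here encode the constitutive proteasome: the subunits of the 20S core particle other than the immune and tissue-specific ones, the 19S regulatory particle, 4 assembly chaperones and 4 activators. They were followed on 20 arrays of mouse embryonic fibroblasts, cells grown out of mouse embryos. Every probe whose transcript maps to one of these genes in the RefSeq annotation of GRCm38.p6 was kept, which gave 52 probes for 39 of 39 genes, out of 41174 probes in all. Of the genes, 28 had 1 probe and 11 had several. All 52 probes were tested, and 50 were well above background on all 20 arrays. The probes of Psmc2 and Psmc6 each had 1 spot left out in a control array of the 20-day set.

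The fibroblasts were cultured for 24 h in serum from female mice of the inbred strain C3H/HeN, and each of the 4 groups held 5 arrays. The groups were serum of mice irradiated at 8 Gy (20-day set), serum of non-irradiated mice (20-day set), serum of mice irradiated at 4 Gy (10-day set) and serum of non-irradiated mice (10-day set). The regime is labelled L/MDR, which is not expanded, and it is not stated if the days count the exposure or the wait before serum collection. Dose and days changed together, and nothing says that the 5 arrays of a group are separate cultures or donors, so the spread behind each p-value is that between arrays and may be technical.

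The proteasome degrades proteins that carry ubiquitin chains. Its 20S core is a barrel of alpha rings, which gate the entry, around beta rings, which hold the proteolytic sites. The 19S particle caps the barrel: ATPases in its base unfold the substrate, non-ATPase base subunits bind ubiquitin and shuttle receptors, and the lid removes the ubiquitin chain. Fibroblasts express these genes constitutively, and the transcription factor Nfe2l1 is known to raise many of them together when proteasome activity is short.

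The values are log2 signals, that is, the processed spot intensity on a log2 scale, less the 75th percentile of its array, so that 0 is the level of that percentile. A change is called when the adjusted p of limma, over all tested probes, is under 0.05, and "rose" and "fell" are used of called changes only. Between 56.8% and 67.2% of probes were well above background on an array, and array 75th percentiles ranged over 731 to 1464 intensity units. All 12 fibroblast markers looked for were well above background on every array. Of 17 macrophage markers on the array, 16 or 17 were well above background in each group, and their summed level relative to the 75th percentile was 81.5 to 92.8 with 8 Gy serum, 86.7 to 108.6 with control serum of the 20-day set, 3.75 to 4.55 with 4 Gy serum and 2.85 to 4.14 with control serum of the 10-day set. The summed level of the neural markers (3 of 5 on no 20-day array) was 1.04 to 1.28 with 8 Gy serum, against 1.47 to 1.78 with control serum of the 20-day set, without overlap, and its part in the results was not tested. That of the 6 endothelial markers was 0.128 to 0.188 with 8 Gy serum and 0.150 to 0.271 with control serum of the 20-day set, and 0.370 to 0.447 with 4 Gy serum and 0.352 to 0.499 with control serum of the 10-day set. The 20-day and 10-day sets were hybridised on different slides, and within the 20-day set each of the 4 slides held 1 group. No 20-day comparison within a slide was therefore possible, and serum and slide cannot be told apart in that set. Between the sets, set and hybridisation cannot be told apart. In these bulk samples, fewer cells of a type and less RNA per cell cannot be told apart either.

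Promoter sequence, in windows of 300 bases that reach to shortly after a transcript start, was taken from RefSeq (GRCm38.p6) for 33 of the 39 genes (36 windows), and 5 windows are shown because they belong to members whose changes are described below. Psmb5, Psmb6, Psma1 and Psmd12 fell with 8 Gy serum, and Psmd1 rose. Capitals mark matches, on either strand, to the antioxidant response element core TGACNNNGC, the CCAAT box or the ETS core CCGGAA, and no matches overlap in the windows shown. Psmb5 (chr14:54617946-54618245, minus strand), Psmb6 (chr11:70525107-70525406, plus strand) and Psmd12 (chr11:107479278-107479577, plus strand) hold TGACNNNGC, and Psmd12 also holds CCGGAA. Psma1 (chr7:114276067-114276366, minus strand) holds CCAAT at 2 places, and the window of Psmd1 (chr1:86064369-86064668, plus strand) holds none of the 3 motifs. The windows shown do not represent all members. Psma3, Psma5, Psma6, Psmb4, Psmd6 and Psmd14 also fell and hold no TGACNNNGC, while Psmc6 fell and holds it. Psmc1 and Psmd2, each with a probe that rose, hold CCGGAA. A link between motif and direction was not tested.
Psmb5: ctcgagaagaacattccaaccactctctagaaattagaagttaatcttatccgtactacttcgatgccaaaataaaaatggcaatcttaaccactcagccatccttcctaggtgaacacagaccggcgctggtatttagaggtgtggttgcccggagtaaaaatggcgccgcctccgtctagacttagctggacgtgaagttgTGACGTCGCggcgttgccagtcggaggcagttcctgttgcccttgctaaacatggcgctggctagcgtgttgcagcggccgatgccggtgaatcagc
Psmb6: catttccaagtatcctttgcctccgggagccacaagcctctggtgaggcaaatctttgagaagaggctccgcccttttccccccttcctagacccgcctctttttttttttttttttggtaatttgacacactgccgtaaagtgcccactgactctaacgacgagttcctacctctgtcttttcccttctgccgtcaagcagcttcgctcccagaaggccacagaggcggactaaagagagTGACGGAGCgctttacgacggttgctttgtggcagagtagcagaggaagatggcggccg
Psma1: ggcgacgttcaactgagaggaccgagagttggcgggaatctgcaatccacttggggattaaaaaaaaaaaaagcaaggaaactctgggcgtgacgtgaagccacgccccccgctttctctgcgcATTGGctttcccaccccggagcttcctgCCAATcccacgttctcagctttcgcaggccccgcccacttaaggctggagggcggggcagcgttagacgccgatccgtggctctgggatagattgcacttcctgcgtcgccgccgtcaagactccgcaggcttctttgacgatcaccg
Psmd12: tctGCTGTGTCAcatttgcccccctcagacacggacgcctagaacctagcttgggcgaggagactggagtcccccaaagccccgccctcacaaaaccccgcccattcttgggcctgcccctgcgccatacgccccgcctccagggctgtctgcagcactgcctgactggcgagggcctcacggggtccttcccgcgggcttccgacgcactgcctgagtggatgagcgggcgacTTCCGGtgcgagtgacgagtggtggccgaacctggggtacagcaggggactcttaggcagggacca
Psmd1: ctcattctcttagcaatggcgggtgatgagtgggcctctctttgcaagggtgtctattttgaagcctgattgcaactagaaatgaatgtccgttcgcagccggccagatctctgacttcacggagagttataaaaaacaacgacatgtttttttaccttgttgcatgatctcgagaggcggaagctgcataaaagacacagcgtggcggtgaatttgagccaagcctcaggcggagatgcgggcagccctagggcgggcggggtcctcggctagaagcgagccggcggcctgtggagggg

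CCGGAA was found in 19 of 36 member windows (52.8%), against 14.9% of all 32851 promoter windows of the same length. TGACNNNGC was found in 6 (16.7%), those of Psmb5, Psmb6, Psmc6, Psmd12, Psmd9 and Psme4, against 12.4% of all windows. CCAAT was found in 12 (33.3%), against 37.4%. Base composition was not matched in these shares, and a match is a string of letters, not a bound site. Psmb1, Psmb2, Psmb7, Psmc3, Psmd3 and Psmd7 had no entry in the promoter table.

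Array by array, the 16 probes of the 20S core separated the groups of the 20-day set. Their median log2 signal was 4.69, 4.76, 4.67, 4.55 and 4.63 on the arrays with 8 Gy serum, against 5.32, 5.28, 5.13, 5.09 and 5.20 on the arrays with control serum of the 20-day set. In the 10-day set it was 4.16, 4.04, 4.06, 4.10 and 4.11 with 4 Gy serum, against 4.02, 4.00, 4.06, 4.06 and 3.97 with control serum. The groups of the 20-day set do not overlap, those of the 10-day set do, and every 20-day array lies above every 10-day array. Over all 52 probes the array medians were 3.91 to 4.17 with 8 Gy serum and 4.19 to 4.41 with control serum of the 20-day set, and 3.38 to 3.62 with 4 Gy serum and 3.34 to 3.49 with control serum of the 10-day set. The map of all probes by array shows this order for most core and lid probes, and a paler or opposite pattern for Psmd1, Psmd2, Psme3 and 2 probes of Psme4.

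**Figure D1:**
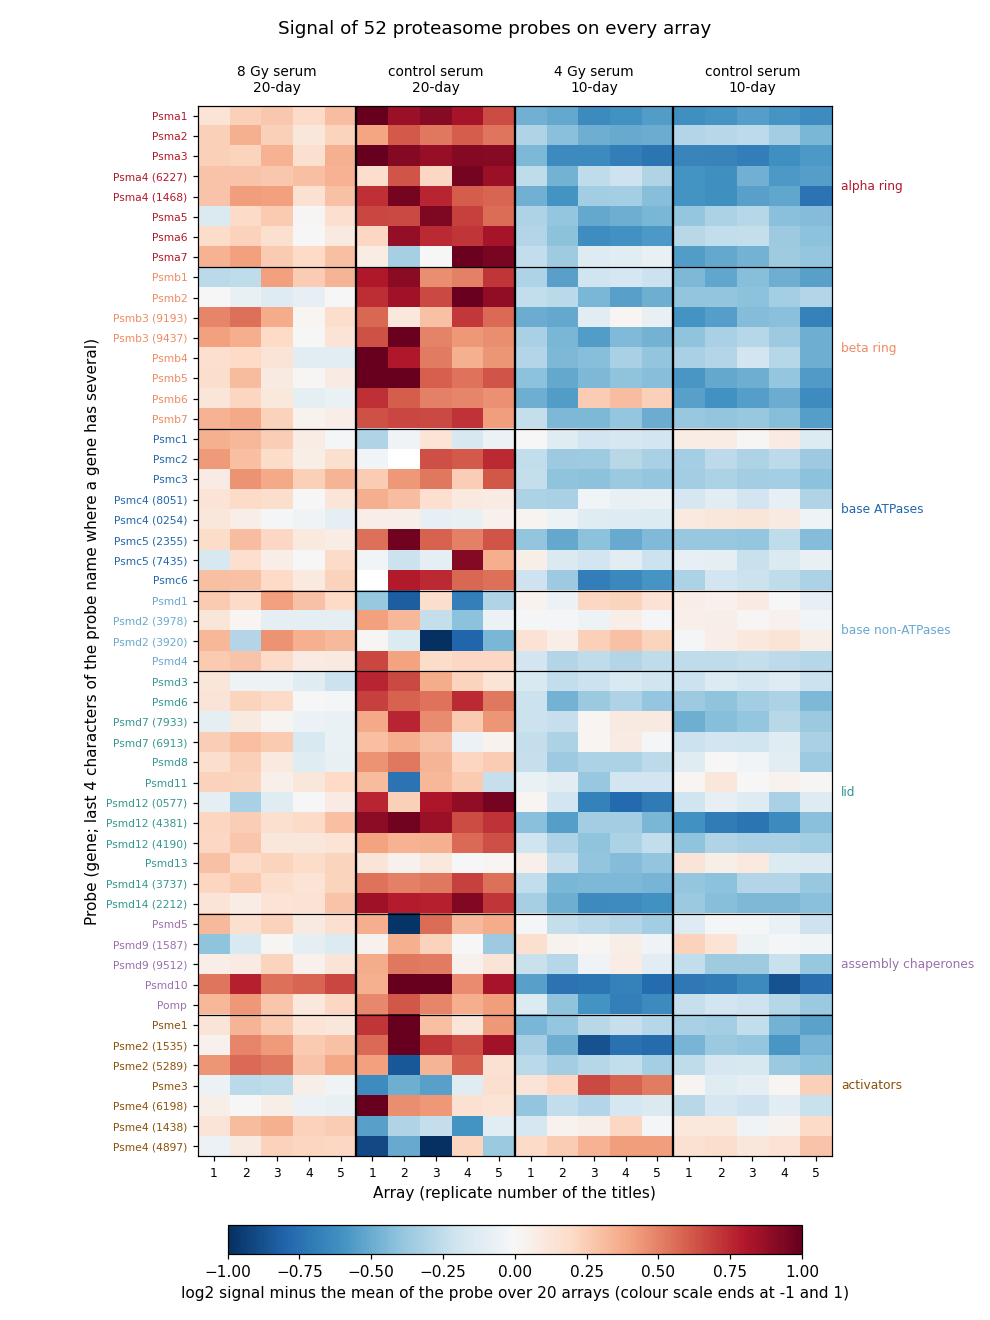
Log2 signal of each of the 52 probes (rows, grouped by role, named by gene and the last 4 characters of the probe name) on each of the 20 arrays (columns), minus the mean of the probe over the 20 arrays. Columns run through 8 Gy serum and control serum of the 20-day set, then 4 Gy serum and control serum of the 10-day set, 5 arrays each. Most alpha and beta ring probes are highest on the arrays with control serum of the 20-day set, lower with 8 Gy serum and lowest in both groups of the 10-day set. Exceptions on some arrays include Psma7, Psmb6, Psmb1 and 1 probe each of Psma4 and Psmb3.

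The first comparison was of 8 Gy serum with control serum of the 20-day set. These groups lay on different slides, so serum and slide cannot be told apart in it. Of the 52 probes 27 fell (51.9%), while 27.4% of all tested probes fell, and 5 rose (9.62%), while 20.6% of all tested probes rose (48.0% changed in either direction). The median log2 change of the 52 probes was −0.29, and that of all tested probes was −0.06. Members are bright on the array: 36 of the 52 lie in the 2 brightest of 20 bins of equal size, and in the bins of the members 46.0% of probes fell and 9.69% rose. Read against probes of equal brightness, their median lay 0.07 below that of their bins, with 32 probes below and 20 above. On 23 probes all 5 arrays with 8 Gy serum lay below all control arrays, where 18.0% of all tested probes and 31.0% of equally bright ones did so. On 3 probes (5.77%) all lay above, where 11.4% of all tested probes and 5.37% of equally bright ones did so.

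The counts depended on the scaling between arrays. The shares of all tested and of equally bright probes hold for the reported scaling only. Shares under the alternatives are not given, here or below, so counts under them are not read against other genes. With the slide as a random block 26 fell and 4 rose. With the array median as the scale 35 fell and 4 rose, and the median of all tested probes moved to −0.20. With quantile normalisation 15 fell and 9 rose, and with cyclic loess 16 fell and 9 rose. Under each of these scalings and normexp background correction, 12 probes fell (those of Psma1, Psma3, Psma5, Psma6, Psmb2, Psmb4, Psmb5, Psmd6, 1 probe each of Psmd7 and Psmd14, and 2 probes of Psmd12) and 3 rose (those of Psmd1 and 1 probe each of Psmd2 and Psme4).

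**Figure D2:**
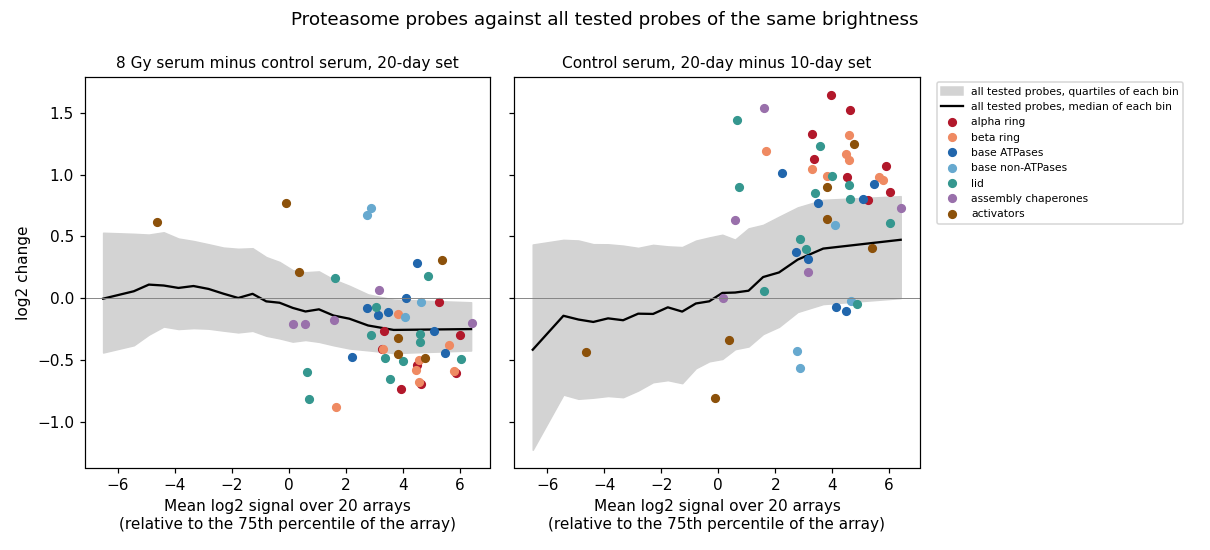
Log2 change (y axis) of each member probe against its mean log2 signal over the 20 arrays (x axis), coloured by role, for 8 Gy serum against control serum of the 20-day set (left) and for control serum of the 20-day set against control serum of the 10-day set (right). The grey band spans the quartiles of all tested probes in each of 20 brightness bins and the line is the bin median. On the left bright probes of all genes lie below 0 and the 20S core probes lie mostly below the line, and on the right the core probes lie mostly above it.

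In the 20S core 13 of 16 probes fell and 0 rose (limma; at an unadjusted p under 0.05, 0 rose as well), while 49.6% of probes in the same brightness bins fell and 7.34% rose. The median log2 change was −0.52, which is 0.27 below the bins, with 14 of 16 probes below. Core probes that fell numbered 13, 14, 8, 10 and 12 under scaling to the 75th percentile, scaling to the array median, quantile normalisation, cyclic loess and normexp, with 0 that rose under any of them. Without the control arrays of slide 5, 1 core probe rose, that of Psma7.

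Psmb5 encodes the beta subunit with the chymotrypsin-like site (chr14:54614120-54617995). Its log2 signal was 4.75, 4.90, 4.67, 4.59 and 4.66 with 8 Gy serum, against 5.74, 5.72, 5.18, 5.12 and 5.21 with control serum of the 20-day set. All 5 arrays with 8 Gy serum lay below all 5 control arrays, of which the first 2 stood above the other three. The means were 4.71 ± 0.119 and 5.39 ± 0.310 (SD, n = 5), a log2 change of −0.68 ± 0.11 (SE; limma, adjusted p = 6.2e-05).

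Psmb6 encodes the subunit with the caspase-like site (chr11:70525324-70527858). It gave 4.69, 4.78, 4.68, 4.48 and 4.51 with 8 Gy serum, against 5.30, 5.18, 5.08, 5.06 and 5.03 with control serum of the 20-day set. The groups do not overlap, and the log2 change was −0.50 ± 0.14 (adjusted p = 0.00776), which was no longer called with quantile normalisation, with cyclic loess, or without the arrays of slide 4 or slide 7.

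Psmb7 encodes the subunit with the trypsin-like site (chr2:38588046-38643952). It gave 3.64, 3.68, 3.53, 3.33 and 3.37 with 8 Gy serum, against 3.93, 3.96, 3.96, 4.02 and 3.72 with control serum of the 20-day set. Again no array with 8 Gy serum reached the lowest control array. The log2 change was −0.41 ± 0.08 (adjusted p = 0.000417), and with normexp background correction it was −0.13 (adjusted p = 0.425).

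The lowest change in the beta ring was that of Psmb2, a beta subunit without a proteolytic site. Its log2 signal was 1.66, 1.58, 1.53, 1.58 and 1.67 with 8 Gy serum, against 2.40, 2.50, 2.32, 2.65 and 2.55 with control serum of the 20-day set. The groups lie well apart, and the log2 change of −0.88 ± 0.07 (adjusted p = 4.55e-08) stayed between −1.10 and −0.72 and was called under all 25 alternatives. The non-catalytic beta subunits Psmb1 and Psmb4 also fell, by 0.58 (adjusted p = 0.00111) and 0.59 (adjusted p = 0.000383) on the log2 scale. One probe of Psmb3 fell by 0.38 (adjusted p = 0.0042). The other Psmb3 probe gave 4.32, 4.38, 4.21, 3.85 and 4.01 with 8 Gy serum, against 4.41, 3.93, 4.13, 4.54 and 4.39 with control serum of the 20-day set, overlapping groups with a log2 change of −0.13 (adjusted p = 0.458).

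In the alpha ring, whose subunits form the gate of the core, 6 of 8 probes fell, where 50.5% of equally bright probes did. Psma3 had the lowest change, with 4.19, 4.18, 4.30, 4.11 and 4.30 for 8 Gy serum, against 5.36, 4.87, 4.82, 4.86 and 4.86 for control serum of the 20-day set. Control array 1 stood above the others, and all control arrays exceeded all arrays with 8 Gy serum (log2 change −0.74 ± 0.09, adjusted p = 3.36e-06, called under all 25 alternatives). Psma1 fell by 0.70 (adjusted p = 1.31e-05), Psma5 by 0.60 (adjusted p = 1.21e-05), Psma6 by 0.54 (adjusted p = 0.000374) and Psma2 by 0.30 (adjusted p = 0.00112) on the log2 scale. Psma4 fell on 1 probe by 0.42 (adjusted p = 0.000355), and its other probe changed by −0.27 (adjusted p = 0.0716).

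Psma7, also an alpha subunit, was the core gene with the highest change. Its log2 signal was 5.62, 5.68, 5.53, 5.47 and 5.57 with 8 Gy serum, against 5.34, 4.94, 5.27, 6.25 and 6.22 with control serum of the 20-day set. Control arrays 1 to 3 (slide 4) lay below all arrays with 8 Gy serum and control arrays 4 and 5 (slide 5) above them. The log2 change was −0.03 ± 0.19 (adjusted p = 0.901), and it was called in opposite directions without slide 4 (−0.66) and without slide 5 (0.39).

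**Figure D3:**
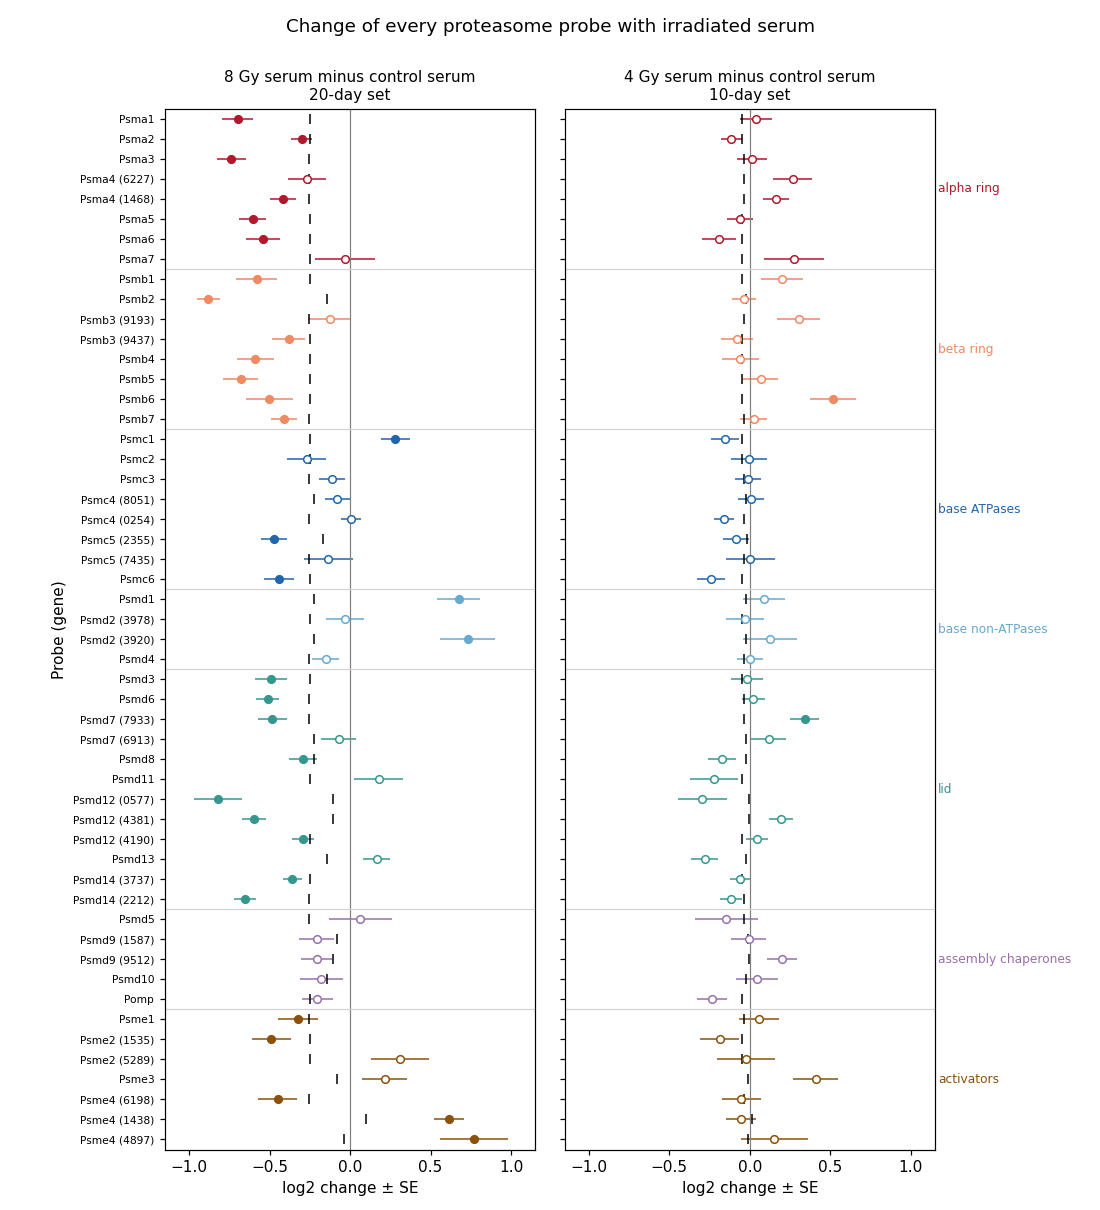
Log2 change ± SE (x axis) of each of the 52 probes (rows, grouped by role) for 8 Gy serum against control serum of the 20-day set (left) and for 4 Gy serum against control serum of the 10-day set (right), 5 arrays per group. Filled points have an adjusted p under 0.05, open points do not, and the black tick is the median of all tested probes of the same brightness bin. On the left 27 probes are filled below 0 and 5 above, and on the right 0 below and 2 above.

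The 24 probes of the 19S particle moved in both directions. Of them 11 fell (45.8%) and 3 rose (12.5%), close to the 46.9% and 9.15% of probes in the same brightness bins. Their median log2 change was −0.21 (0.02 with quantile normalisation), and this lay 0.04 above the bins. Of the 12 lid probes 9 fell and 0 rose (limma; 0 also at an unadjusted p under 0.05), where 45.3% of equally bright probes fell and 9.99% rose, with a median of −0.42, which was below 0 under all 5 scalings. Among the 8 probes of base ATPases 2 fell and 1 rose, where 48.7% of equally bright probes fell and 8.16% rose. Their median was −0.13 (0.08 with quantile normalisation). Among the 4 probes of non-ATPase base subunits 0 fell and 2 rose, where 48.4% of equally bright probes fell and 8.58% rose, with a median of 0.32. A test of lid against base was not run.

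In the lid, the largest fall was on the probe A_51_P500577 of Psmd12, a scaffold subunit. It gave 0.64, 0.40, 0.60, 0.73 and 0.81 with 8 Gy serum, against 1.49, 0.97, 1.53, 1.61 and 1.68 with control serum of the 20-day set. Control array 2 was low, yet above all arrays with 8 Gy serum, and the log2 change was −0.82 ± 0.15 (adjusted p = 0.000205). The other 2 probes of Psmd12 fell by 0.60 (adjusted p = 3.76e-06) and 0.29 (adjusted p = 0.00161). Psmd14, the deubiquitinase that cuts the chain off the substrate, fell on both probes, by 0.66 (adjusted p = 5.22e-07) and 0.36 (adjusted p = 9.26e-05). The structural lid subunits Psmd6, Psmd3 and Psmd8 fell by 0.51 (adjusted p = 1.03e-05), 0.49 (adjusted p = 0.000475) and 0.30 (adjusted p = 0.00878).

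Psmd7, the lid subunit that pairs with Psmd14, fell on its probe A_51_P487933. The values were 3.30, 3.48, 3.43, 3.33 and 3.33 with 8 Gy serum, against 3.78, 4.16, 3.87, 3.66 and 3.84 with control serum of the 20-day set. The groups do not overlap (log2 change −0.48 ± 0.09, adjusted p = 0.000243), while the other Psmd7 probe changed by −0.07 (adjusted p = 0.625). The highest change in the lid was on Psmd11, which clamps the lid onto the core, with 5.10, 5.09, 4.93, 4.99 and 5.07 for 8 Gy serum, against 5.19, 4.13, 5.20, 5.14 and 4.64 for control serum of the 20-day set. Control arrays 2 and 5 were low, and the log2 change of 0.18 ± 0.15 was not called (adjusted p = 0.349), though it was with quantile normalisation and cyclic loess. Psmd13 changed by 0.16 (adjusted p = 0.122).

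Base ATPases unfold the substrate and open the gate. The lowest change among them was on the probe A_51_P232355 of Psmc5, with 2.40, 2.53, 2.43, 2.32 and 2.30 for 8 Gy serum, against 2.77, 3.19, 2.81, 2.73 and 2.85 for control serum of the 20-day set. No values overlap, and the log2 change was −0.47 ± 0.08 (adjusted p = 8.46e-05), but −0.10 (adjusted p = 0.409) with normexp. The second Psmc5 probe changed by −0.14 (adjusted p = 0.484). Psmc6 fell by 0.44 (adjusted p = 0.000885; 4 control arrays). Psmc2, Psmc3 and Psmc4 were not called, with changes between −0.27 and 0.00.

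Psmc1 was the 1 ATPase gene that rose. It gave 4.85, 4.82, 4.74, 4.56 and 4.48 with 8 Gy serum, against 4.19, 4.46, 4.63, 4.33 and 4.44 with control serum of the 20-day set. The groups overlap, the log2 change was 0.28 ± 0.09 (adjusted p = 0.0135), and the call was lost under 5 alternatives.

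Of the large scaffold subunits of the base, Psmd1 and 1 of 2 probes of Psmd2 rose. Psmd1 gave 3.03, 2.96, 3.18, 3.06 and 2.96 with 8 Gy serum, against 2.39, 1.94, 2.94, 2.08 and 2.47 with control serum of the 20-day set. Every array with 8 Gy serum lay above every control array, although control array 3 came close to the lowest of them (log2 change 0.67 ± 0.13, adjusted p = 0.000363). Psmd2, which docks shuttle receptors, gave 3.22, 2.59, 3.34, 3.24 and 3.21 on its probe A_52_P363920 with 8 Gy serum, against 2.90, 2.75, 1.78, 2.10 and 2.43 with control serum of the 20-day set. Array 2 with 8 Gy serum was low and overlaps the controls, and the log2 change was 0.73 ± 0.17 (adjusted p = 0.00165).

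The second Psmd2 probe did not show the rise, at 4.77, 4.67, 4.56, 4.55 and 4.56 with 8 Gy serum, against 5.06, 4.98, 4.41, 4.24 and 4.59 with control serum of the 20-day set (log2 change −0.03, adjusted p = 0.838). The ubiquitin receptor Psmd4 gave 4.36, 4.38, 4.28, 4.17 and 4.19 with 8 Gy serum, against 4.76, 4.49, 4.28, 4.30 and 4.30 with control serum of the 20-day set. The groups meet, and the log2 change of −0.15 was not called (adjusted p = 0.132).

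Of the 5 probes of assembly chaperones 0 fell and 0 rose (limma; at an unadjusted p under 0.05, 2 lower and 0 higher), where 39.9% of equally bright probes fell and 13.8% rose. Psmd9, a chaperone of base assembly, had the lowest change, on its probe A_52_P469512: 0.64, 0.66, 0.80, 0.61 and 0.70 with 8 Gy serum, against 0.94, 1.10, 1.09, 0.61 and 0.70 with control serum of the 20-day set. Control arrays 1 to 3 (slide 4) were above all arrays with 8 Gy serum and arrays 4 and 5 (slide 5) among them, with a log2 change of −0.21 (adjusted p = 0.0772). Psmd5, also a base chaperone, had the highest, with 3.49, 3.32, 3.39, 3.25 and 3.32 for 8 Gy serum, against 3.52, 2.18, 3.72, 3.48 and 3.53 for control serum of the 20-day set. Its log2 change was 0.06 ± 0.20 (adjusted p = 0.807), and −0.21, called, without control array 2. The base chaperone Psmd10 changed by −0.18 (adjusted p = 0.276) and Pomp, which matures the core, by −0.20 (adjusted p = 0.0831).

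Activators open the core without the 19S cap. The subunits of the interferon-inducible activator, Psme1 and Psme2, fell by 0.32 (adjusted p = 0.04) and, on the Psme2 probe A_51_P361535, by 0.49 (adjusted p = 0.00252). That Psme2 probe gave 4.82, 5.27, 5.21, 5.04 and 5.08 with 8 Gy serum, against 5.35, 5.96, 5.49, 5.43 and 5.62 with control serum of the 20-day set, with no overlap, and its call was lost with quantile normalisation and cyclic loess. The other Psme2 probe changed by 0.31 (adjusted p = 0.164). Psme3, the nuclear activator of the same family, changed by 0.21 (adjusted p = 0.221).

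Psme4 (chr11:30771775-30881150), a large nuclear activator, was the 1 gene with probes called in opposite directions. Probe A_51_P166198 gave 3.88, 3.83, 3.88, 3.77 and 3.75 with 8 Gy serum, against 4.87, 4.29, 4.25, 3.98 and 3.96 with control serum of the 20-day set, a log2 change of −0.45 ± 0.12 (adjusted p = 0.00553) without overlap that was lost with quantile normalisation, with cyclic loess and without slide 4. The dim probe A_52_P111438 gave −4.51, −4.32, −4.28, −4.41 and −4.38 with 8 Gy serum, against −5.18, −4.94, −4.87, −5.24 and −4.75 with control serum of the 20-day set, a log2 change of 0.62 ± 0.09 (adjusted p = 2.83e-05) without overlap that was lost with normexp. On these probes of 1 gene all arrays with 8 Gy serum lay on opposite sides of the control arrays. The third probe, A_52_P344897, gave −0.17, −0.02, 0.13, 0.11 and 0.10 with 8 Gy serum, against −1.01, −0.60, −1.71, 0.11 and −0.48 with control serum of the 20-day set (log2 change 0.77 ± 0.21, adjusted p = 0.00522, with overlap). Its call was lost without slide 4. The direction of Psme4 thus depended on the probe, and which transcripts each probe measures was not tested.

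By gene, 24 of the 39 had at least 1 probe that fell, 4 had at least 1 that rose (Psme4 is in both counts) and 12 had none. The share of all genes with such a probe is not given, and a gene with several probes can be counted more easily. Nothing is therefore read from these gene counts. Of the genes with several probes, Psmd12 and Psmd14 fell on every probe.

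With 4 Gy serum against control serum of the 10-day set, 0 of 52 probes fell (limma; 4 at an unadjusted p under 0.05) and 2 rose (6 unadjusted), where 1.40% of all tested probes fell and 3.85% rose (5.25% in either direction). The median log2 change of the 52 probes was −0.01. Psmb5 gave 4.17, 4.07, 4.13, 4.18 and 4.15 with 4 Gy serum, against 4.00, 4.07, 4.09, 4.19 and 4.01 with control serum of the 10-day set, groups that overlap (log2 change 0.07, adjusted p = 0.793). Psmb7 changed by 0.02 (adjusted p = 0.915).

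The 2 rises were on Psmb6 and on 1 probe of Psmd7. Psmb6 gave 4.09, 4.02, 4.83, 4.88 and 4.81 with 4 Gy serum, against 4.03, 3.97, 4.02, 4.08 and 3.94 with control serum of the 10-day set (log2 change 0.52 ± 0.14, adjusted p = 0.0435). The first 2 arrays with 4 Gy serum, on slide 2 with 1 control array, lay among the controls, and the other three, on slide 3, lay above them. Within slide 2 (2 arrays against 1), and with the slide as a fixed block, the log2 change was 0.11 (adjusted p = 0.652 with the block).

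The Psmd7 probe A_51_P487933 gave 3.18, 3.17, 3.41, 3.49 and 3.49 with 4 Gy serum, against 2.91, 2.97, 3.01, 3.12 and 3.02 with control serum of the 10-day set. The groups do not overlap (log2 change 0.34 ± 0.09, adjusted p = 0.0338), and the arrays of slide 3 were higher than those of slide 2, which also lay above all controls. Within slide 2, and with the slide as a fixed block, the log2 change was 0.15 (adjusted p = 0.626 with the block). Of 22 alternatives, the call held in 7 for Psmb6 and in 11 for Psmd7.

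The difference between the responses, 8 Gy serum against its control minus 4 Gy serum against its control, was tested in the same fit. It was below 0 and called on 20 of 52 probes, where 21.1% of all tested probes were, and above 0 and called on 4, where 15.3% were. Among equally bright probes 29.4% were called below 0 and 7.80% above. With quantile normalisation the members divided 12 below and 7 above, and with cyclic loess 13 and 8, without shares of all tested probes to set beside them. In the 20S core 11 of 16 probes were called below 0 and 0 above, where 30.8% and 6.29% of equally bright probes were. Among the 11 were Psmb6 (−1.02, adjusted p = 0.000856), Psmb5 (−0.75, adjusted p = 0.00117) and Psmb7 (−0.43, adjusted p = 0.00666). The Psmd7 probe A_51_P487933 differed by −0.83 (adjusted p = 9.06e-05). Psmd1 differed by 0.59 (adjusted p = 0.0189), the 1 difference above 0 that was called under all 5 scalings. The sets differ in dose, days and slides, which cannot be told apart in this difference.

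The control sera of the sets were then compared, with 20-day over 10-day. Here 38 of 52 probes were higher and called, where 35.5% of all tested and 55.4% of equally bright probes were. Another 5 were lower, where 32.3% of all tested and 18.7% of equally bright probes were (67.8% of all tested in either direction). On 36 probes all arrays with control serum of the 20-day set lay above all with control serum of the 10-day set, where 26.9% of all tested and 44.6% of equally bright probes did so. The median log2 difference was 0.83, which lay 0.42 above the bins. All 16 core probes were higher, where 60.2% of equally bright probes were, with a median of 1.10, and 15 of them under all 5 scalings.

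Psma3 gave 5.36, 4.87, 4.82, 4.86 and 4.86 with control serum of the 20-day set, against 3.29, 3.28, 3.26, 3.34 and 3.38 with control serum of the 10-day set. These groups are far apart, with a log2 difference of 1.65 (adjusted p = 1.12e-11). Psmb5 was higher by 1.32 (adjusted p = 3.54e-09), Psmb2 by 1.19 (adjusted p = 5.18e-11), Psmb6 by 1.12 (adjusted p = 1.25e-06) and Psmb7 by 1.05 (adjusted p = 1.28e-09).

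Lid probes were higher in 10 of 12 and base ATPases in 5 of 8, with medians of 0.83 and 0.57. Among equally bright probes 54.2% were higher for the lid and 58.0% for the base ATPases, so that the count of the ATPases lay near its share. Of the 4 probes of non-ATPase base subunits 1 was higher and 2 were lower, where 56.7% of equally bright probes were higher and 17.4% lower. Psmd1 differed by −0.43 (adjusted p = 0.00757) between these control sera. Psmd10 was higher by 1.54 (adjusted p = 4.89e-09). Of the 7 activator probes 3 were higher and 3 lower, where 48.5% of equally bright probes were higher and 24.1% lower. The median of the activator probes, 0.40, was below 0 with quantile normalisation and cyclic loess. The macrophage and endothelial marker sums given above moved with this difference and with the one between irradiated sera. So did the neural sum, which was 1.97 to 2.59 with 4 Gy serum and 1.82 to 1.97 with control serum of the 10-day set. The part of these sums in the differences was not tested.

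The irradiated sera, 8 Gy 20-day over 4 Gy 10-day, were compared as well: 36 of 52 probes were higher and called, where 28.2% of all tested probes were, and 1 was lower, that of Psme3 (−0.53, adjusted p = 0.00324), where 28.9% were (57.1% in either direction). Among equally bright probes 41.9% were higher and 17.1% lower. The median log2 difference was 0.46, with 15 of 16 core probes higher (46.0% of equally bright probes) and a core median of 0.59. For Psmb6 it was 0.11 (adjusted p = 0.553). This comparison minus that of the control sera equals the difference between the responses, and the comparison of control sera uses the control arrays of both responses, so these comparisons are not independent.

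The immunoproteasome subunits replace the catalytic beta subunits in immune cells, macrophages among them, and under interferon gamma. Of 4 tested probes of Psmb8, Psmb9 and Psmb10, 0 fell and 0 rose with 8 Gy serum or with 4 Gy serum (limma; 0 at an unadjusted p under 0.05 in each). Of all tested probes 27.4% fell and 20.6% rose with 8 Gy serum, and 1.40% fell and 3.85% rose with 4 Gy serum. One Psmb8 probe gave 1.77, 2.04, 2.07, 1.78 and 1.59 with 8 Gy serum, against 1.96, 2.21, 2.05, 1.93 and 2.21 with control serum of the 20-day set, which overlap (log2 change −0.22, adjusted p = 0.22). In the 10-day set the same probe gave 0.40, 0.36, 0.72, 0.86 and 0.50 with 4 Gy serum, against 0.77, 0.72, 0.93, 0.16 and 0.23 with control serum.

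Between the control sera all 4 probes were higher in the 20-day set, where 35.5% of all tested probes were. The Psmb8 probes differed by 1.51 (adjusted p = 2.88e-08) and 1.41 (adjusted p = 5.07e-07), Psmb9 by 1.09 (adjusted p = 1.33e-06) and Psmb10 by 0.41 (adjusted p = 0.0499). The plot of catalytic and immune subunits puts these beside Psmb5, Psmb6, Psmb7 and Psmb2: both kinds were higher in the 20-day set, and the constitutive ones alone were called lower with 8 Gy serum than with its control, while the difference between the kinds was not tested.

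**Figure D4:**
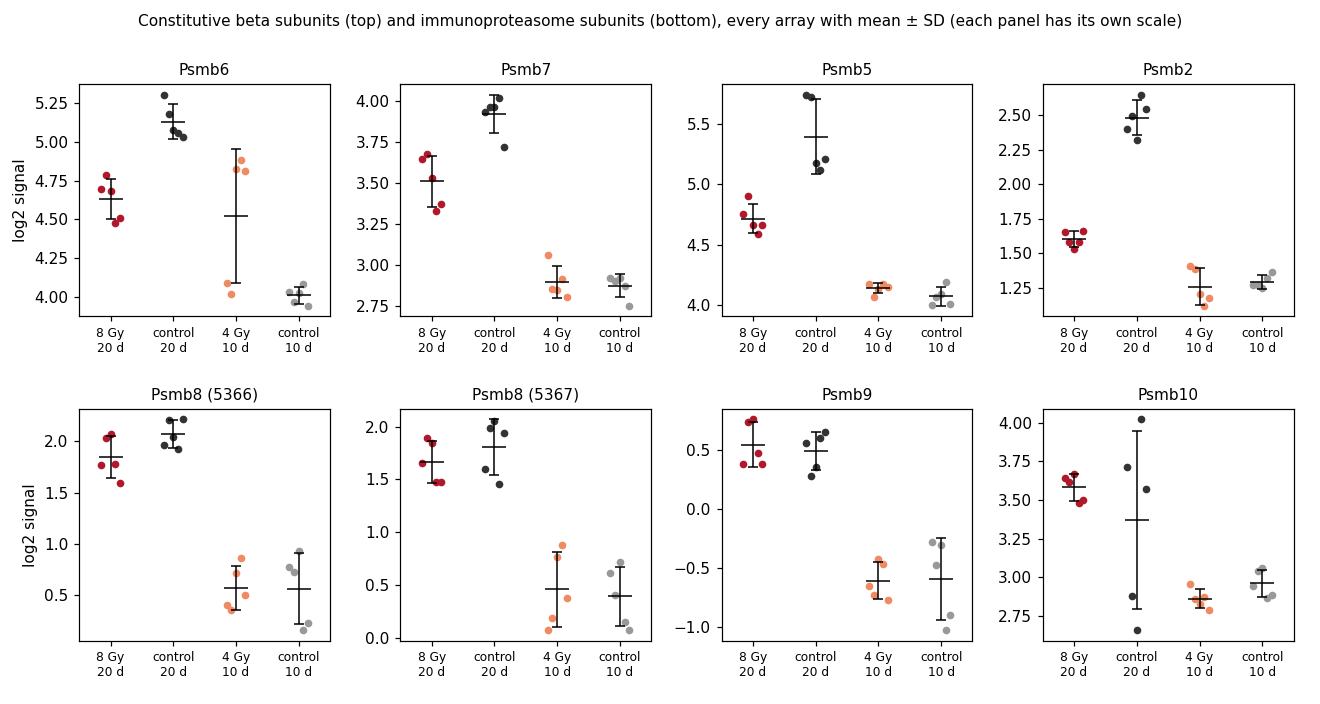
Log2 signal (y axis) on every array, with the mean ± SD of each group (n = 5), for the constitutive subunits Psmb6, Psmb7, Psmb5 and Psmb2 (top) and the immunoproteasome subunits Psmb8 (both probes), Psmb9 and Psmb10 (bottom). Groups run through 8 Gy serum and control serum of the 20-day set, then 4 Gy serum and control serum of the 10-day set. In the top row no point with 8 Gy serum reaches the control points of the 20-day set, and in the bottom row these groups overlap.

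Other genes of the pathway were counted for 8 Gy serum against control serum of the 20-day set. Of 20 probes of further assembly and associated factors, 10 fell and 1 rose, where 27.4% of all tested probes fell and 20.6% rose. These shares also apply to the counts of the lists that follow, several of which lie near them. Shares of equally bright probes were not counted for these lists. The median log2 change of the 20 probes was −0.21, and relative to the bins of equal brightness it was −0.05. Relative to the bins, the medians of the Nfe2l1, ubiquitin and E1, and shuttle receptor lists were 0.13, 0.19 and 0.16. Usp14, a deubiquitinase that docks on Psmd2, has 3 probes, and A_52_P276248 gave 0.15, 0.06, 0.03, 0.19 and 0.13 with 8 Gy serum, against 0.76, 0.70, 1.01, 1.01 and 1.01 with control serum of the 20-day set. It fell without overlap by 0.79 on the log2 scale (adjusted p = 8.28e-08), while the others changed by −0.44 (adjusted p = 0.0134) and −0.09 (adjusted p = 0.469). The core assembly chaperone Psmg1 fell by 0.50 (adjusted p = 7.87e-07).

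Of 26 probes of a list drawn up around Nfe2l1, 7 fell and 11 rose, and their median was 0.03. The list also names genes outside the Nfe2l1 pathway, such as those of CCAAT-box factors. Its counts and median are therefore not those of that pathway alone. Mafg, a small Maf partner of Nfe2l1 and Nfe2l2, gave 1.79, 1.73, 1.60, 1.53 and 1.55 with 8 Gy serum, against 1.19, 0.94, 0.95, 0.66 and 0.69 with control serum of the 20-day set, a rise of 0.75 (adjusted p = 1.91e-06). Nfe2l2, the oxidative stress factor, fell on both probes, by 0.56 (adjusted p = 4.71e-06) and 0.50 (adjusted p = 1.17e-05). With 4 Gy serum 2 of the 26 fell and 2 rose, where 1.40% of all tested probes fell and 3.85% rose. Mafg was among those that fell there (−0.38, adjusted p = 0.0199).

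Among 12 probes of ubiquitin and E1 enzymes 2 fell and 4 rose. Uba3, a subunit of the NEDD8-activating enzyme, fell by 0.82 (adjusted p = 8.09e-06), and Uba1, the main ubiquitin-activating enzyme, rose on both probes, by 1.20 (adjusted p = 3.29e-05) and 0.63 (adjusted p = 0.000104). Among 9 probes of shuttle receptors, which carry ubiquitinated proteins to the base, 2 fell and 2 rose. The probes of Ubqln1, a receptor of this kind, moved in opposite directions: A_52_P434974 fell by 0.63 (adjusted p = 0.000257), A_52_P322658 rose by 0.39 (adjusted p = 0.00842) and A_51_P504105 changed by 0.43 (adjusted p = 0.227).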

How the data were processed

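Total RNA of mouse embryonic fibroblasts cultured for 24 h with mouse serum was labelled with Cy3 and hybridised to 1-colour Agilent arrays, 20 arrays in 4 groups of 5. The deposited scanner files of the authors give a processed intensity for each spot, background-subtracted and not scaled between arrays, made with Agilent Feature Extraction 10.5.1.1 per the file headers (11.0 per the submitters' processing notes). They also hold quality marks of another kind (0 or 1), per the file headers. A table of processed log2 values, centred within each set, was also deposited by the authors and served as an alternative within sets.

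Spots with outlier marks (50 to 181 per array) were left out and spots of 1 probe averaged. Signals are processed intensities on a log2 scale, less the 75th percentile of their array. Accessions named 24844 of 41174 probes through the RefSeq annotation of GRCm38.p6. Probes that every array of some group (5 arrays) showed well above background were tested with limma 3.58.1 (R 4.3.3; lmFit and eBayes, 4 group means, two-sided), with Benjamini-Hochberg adjustment over all 26233 tested probes and a threshold of 0.05. Tested probes were divided into 20 bins of mean signal to describe probes of equal brightness. The number of arrays limits the precision.

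Values are given for the catalytic subunits, for the lowest and highest change in each role group with 8 Gy serum, for members called in the 10-day set and for genes with opposite calls. Of other pathway lists the members with the lowest adjusted p are named, except 1 that is not reported here. Other scalings, background correction, filters, slide and replicate blocks and left-out arrays were alternatives, and leaving out each slide of the 20-day set was chosen after seeing the data. The members and lists were chosen with earlier results of these data known. The limma step was tested on simulated data. The deviations of same-numbered arrays of the 20-day set from their group means correlated at 0.17, 0.13, 0.16, 0.23 and 0.40 for replicates 1 to 5. Arrays of different numbers were not compared, and in each group replicates 1 to 3 and replicates 4 and 5 lay on different slides. A pairing by number is therefore not shown, and the labels state none.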

Additional observations from a re-analysis of the deposited data

Results flagged for a closer look

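For 10 of the 20 probes described with full values, the response to 8 Gy serum in the 20-day set differed from the response to 4 Gy serum in the 10-day set, by the test of the difference itself in limma, where 36.4% of all tested probes did. Most of the 20 were picked for their change with 8 Gy serum, which is part of this difference, so nothing is read from the count. The differences, 20-day response minus 10-day response on the log2 scale, were −0.75 for Psmb5, −1.02 for Psmb6, −0.43 for Psmb7, −0.75 for Psma3 and −0.84 for Psmb2 in the 20S core. They were −0.83 for Psmd7 (A_51_P487933) in the lid, −0.39 for Psmc5 (A_51_P232355) and 0.44 for Psmc1 in the base, −0.41 for the chaperone Psmd9 (A_52_P469512) and 0.67 for the dim Psme4 probe A_52_P111438. Dose, days and slides cannot be told apart in these differences.

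In 6 of 80 groups checked, 1 array stood apart from the other 4 by Dixon's criterion, which chance exceeds in about 1 in 20 groups. With 8 Gy serum it was array 2 for Psmd2 (A_52_P363920), the lowest at 2.59. The other 5 were arrays with control serum of the 20-day set: the highest for Psma3 (5.36, array 1) and Psmc5 (3.19, array 2), and the lowest for Psmb7 (3.72, array 5), Psmd12 (0.97, array 2) and Psmd5 (2.18, array 2). Leaving out control array 2 changed the direction for Psmd5, as described above.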

How the results depend on the processing

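For 8 Gy serum against control serum of the 20-day set, quantile normalisation gave 15 lower and 9 higher member probes (median −0.0902), cyclic loess 16 and 9 (median −0.0934) and the array median a median of −0.44; with 1 probe per gene 2 were higher. Leaving out 1 array at a time gave 26 to 29 lower, 5 to 6 higher and medians of −0.33 to −0.26. For the 10-day set the rises numbered 0 with the array median, normexp, no filter on dim probes and either slide block, and 4 with only the groups compared and in the authors' deposited table, each of which also gave 1 lower. Leaving out arrays gave 0 to 3 lower (3 without array 1 with 4 Gy serum), 0 to 3 higher and medians of −0.03 to 0.00; the rises numbered 0 or 1 without any 1 of the 5 control arrays or without array 3, 4 or 5 with 4 Gy serum.

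For the difference between the responses, the array median gave 2 higher, quantile normalisation 12 lower and 7 higher (median −0.10), cyclic loess 13 and 8 (median −0.12) and the slide as a random block 1 higher; leaving out arrays gave 20 to 22 lower and 4 to 5 higher. For the control sera, lower probes numbered 3 with the array median, 9 with both quantile normalisation and cyclic loess, and 2 with 1 probe per gene and with the slide as a random block. Scaling to the array median gave a median of 0.96, quantile normalisation 0.47, cyclic loess 0.43 and normexp 0.70, and leaving out arrays gave 38 to 41 higher and 4 to 5 lower. For the irradiated sera the median was 0.32 with quantile normalisation and 0.29 with cyclic loess, 3 probes were lower with normexp and with only the groups compared, and leaving out arrays gave 33 to 36 higher.

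Of 100 values of the probes described in full (20 probes, 5 comparisons), 28 changed sign under at least 1 alternative, and in 6 cases the value was called as reported or under that alternative. With normexp the difference between the responses was 0.0361 for Psmc5 and 0.0186 for Psmd9, the difference between control sera was 0.22 for Psme4 (A_52_P111438) and that between irradiated sera was −0.42 for Psmd7 (A_51_P487933). For 8 Gy serum, Psmd5 changed by −0.21 without control array 2 (−0.21 to 0.17 over the arrays left out), and Psma7 by 0.39 without slide 5. The cause was not tested.

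With the replicate number as a block, the 20-day set gave 27 lower and 5 higher member probes, as without it, and the 10-day set gave 1 lower. Same-numbered arrays of the 10-day set correlated between −0.05 and 0.16, and a pairing by number is shown for neither set. A replicate block across sets, a fixed slide block in the 20-day set and across sets, and the authors' table across sets could not be fitted.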
